A study of Rattus norvegicus with 12 samples.

Results

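The genes that make nitric oxide from arginine were followed in INS-1E cells, an insulin-secreting line derived from a rat insulinoma and used as a model of the β-cell. The 9 genes were taken by symbol from 34034 symbols in the count table, by a rule that names genes of the pathway and sets no threshold on their values: Nos2 and its pseudogene Nos2-ps1, the cofactor synthesis genes Gch1, Pts and Spr, the citrulline recycling genes Ass1 and Asl, the arginine carrier gene Slc7a2, and Arg2, the mitochondrial arginase. Bulk RNA-seq was measured in 4 groups of 3 biological replicates. Untreated cells received no cytokine. IL-1βlow cells were held with 10 pg/ml IL-1β for 72 h, with cytokine added anew each 24 h. CYT cells were challenged for 16 h with 100 pg/ml IL-1β plus 5 ng/ml IFN-γ, and IL-1βlow + CYT cells received the low dose first and then, in renewed medium, the same challenge. All groups shared 1 wild-type cell line and its culture medium with 11 mM glucose. The labels do not say whether IL-1βlow cells spent a further 16 h in fresh medium before harvest, nor whether replicates were grown apart, so the tests measure the spread between these libraries.

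Inducible nitric oxide synthase, the product of Nos2, is made only after stimulation and turns L-arginine into nitric oxide and L-citrulline. It needs tetrahydrobiopterin, whose synthesis from GTP runs through GTP cyclohydrolase 1 (Gch1), 6-pyruvoyltetrahydropterin synthase (Pts) and sepiapterin reductase (Spr), with Gch1 as the rate-limiting step. Argininosuccinate synthase (Ass1) and argininosuccinate lyase (Asl) rebuild arginine from citrulline, cationic amino acid transporter 2 (Slc7a2) brings arginine in from the medium, and arginases compete for it. In β-cells this synthase is a known route by which cytokines damage the cell.

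Total counts ran from 15812640 to 20246806 per library. CPM are counts per 1e+06, scaled to library size by TMM, except that the limit of 1 CPM in 2 libraries was applied before TMM. All 10 β-cell marker genes searched were above 1 CPM in 2 libraries or more. Their summed level was 44000 to 51000 CPM in untreated, 39600 to 45900 in IL-1βlow, 14900 to 15700 in CYT and 21300 to 26800 in IL-1βlow + CYT libraries. The sum was thus lowest in the group where Nos2 and Ass1 were highest, and its part in the results was not tested. It rests largely on Ins1, Chga and Ins2, at 24000, 10400 and 8100 CPM in untreated cells. Slc2a2 had means of 434, 352, 397 and 596 CPM in untreated, IL-1βlow, CYT and IL-1βlow + CYT cells. The other marker genes each had their lowest mean in CYT cells. For Scg2 the margin was small, at 970 ± 168 CPM against 1060 ± 116 in untreated cells (SD, n = 3). Macrophages also induce Nos2. Of 9 macrophage and leukocyte markers, 3 (Cd68, Csf1r and Adgre1) passed that limit, and the 9 summed to 1.18 to 1.72 CPM in untreated, 0.974 to 1.11 in IL-1βlow, 2.39 to 3.59 in CYT and 4.44 to 5.88 in IL-1βlow + CYT libraries. Ptprc, Itgam, Cd14 and Marco had 0 counts in every group. The sum was thus highest in IL-1βlow + CYT libraries, not in CYT libraries, and its part was not tested either. In bulk RNA, fewer expressing cells and less RNA per cell cannot be told apart.

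Gch1 and Ass1 are the protein-coding members with a called change for which RefSeq sequences were at hand, and their promoter windows are given because their called changes between the challenged groups had opposite signs. Each window runs from 250 bases before to 50 bases after the start of transcription in the assembly GRCr8, which is newer than the mRatBN7.2 build used for counting. Of the 9 members, 5 had a window (Gch1, Pts, Spr, Ass1 and Asl). Capitals mark every motif found on either strand, which in Gch1 are NF-κB sites and in Ass1 is a TATA box.
Gch1, chr15:22917363-22917662, minus strand: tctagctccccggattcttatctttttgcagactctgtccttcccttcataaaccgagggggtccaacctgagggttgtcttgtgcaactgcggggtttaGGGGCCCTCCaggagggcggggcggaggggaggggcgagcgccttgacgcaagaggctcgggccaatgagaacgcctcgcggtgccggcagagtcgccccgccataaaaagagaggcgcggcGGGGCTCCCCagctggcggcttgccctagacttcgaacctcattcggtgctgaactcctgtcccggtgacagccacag
Ass1, chr3:35149480-35149779, plus strand: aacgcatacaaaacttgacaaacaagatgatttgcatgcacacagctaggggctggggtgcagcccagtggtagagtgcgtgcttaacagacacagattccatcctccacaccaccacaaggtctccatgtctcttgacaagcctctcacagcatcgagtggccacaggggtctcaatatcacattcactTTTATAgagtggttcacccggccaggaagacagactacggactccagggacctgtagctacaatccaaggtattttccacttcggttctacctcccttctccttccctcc

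The Gch1 window holds 22 CpG dinucleotides and is 63.3% G or C, against 6 and 51.0% in the Ass1 window. The NF-κB consensus was found in Gch1 150 and 28 bases before the start, and in 7.51% of the 33469 rat promoter windows. The interferon-γ-activated site TTCNNNGAA was in 8.87% of windows, the interferon response element core in 3.92%, the C/EBP-ATF site TGATGNAA in 3.98% and the TATA box TATAAA in 14.2%. Among the 5 members with a window, Pts held an interferon-γ-activated site and an interferon response element core, which overlap. Ass1 held the TATA box, on the opposite strand 60 bases before the start, and Spr and Asl held none of the motifs. A match describes letters only, and no match says only that these letters are not in this window.

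The 14324 genes that exceeded 1 CPM in 2 or more libraries were tested by edgeR's quasi-likelihood test over the 12 libraries with Benjamini-Hochberg adjustment. A call needed an adjusted p below 0.01 and a log2 fold change of either sign beyond a minimum, which was 0.6 between IL-1βlow and untreated cells and 1 in the other comparisons. Of the 9 members 8 were tested, and Arg2 was below the filter. Nos2 and Nos2-ps1 passed the filter through challenged libraries alone, so their calls against cells without challenge were in part set by the filter. With CYT 3 of the 8 were called higher (Nos2, Nos2-ps1 and Ass1), where 21.6% of all genes tested were called. Between IL-1βlow + CYT and CYT cells 4 were called, with Nos2, Nos2-ps1 and Ass1 lower and Gch1 higher, against 12.5% of all genes. In IL-1βlow against untreated cells Gch1 alone was called, against 0.433% of all genes. IL-1βlow + CYT cells had the same 3 genes higher as CYT cells when set against untreated cells (5.99% of all genes called), and against IL-1βlow cells (3.88%). In the test of whether the CYT response differed with preconditioning (the interaction), 1 of the 8 was called, Ass1, against 10.7% of all genes. That test could not decide for Nos2 or Nos2-ps1, whose unchallenged libraries held next to no counts. At an adjusted p below 0.05 and any fold change, 6 of the 8 passed with CYT, where 62.3% of all genes did, 5 in IL-1βlow + CYT against untreated cells (21.8%) and 4 against IL-1βlow cells (13.0%).

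**Figure D1:**
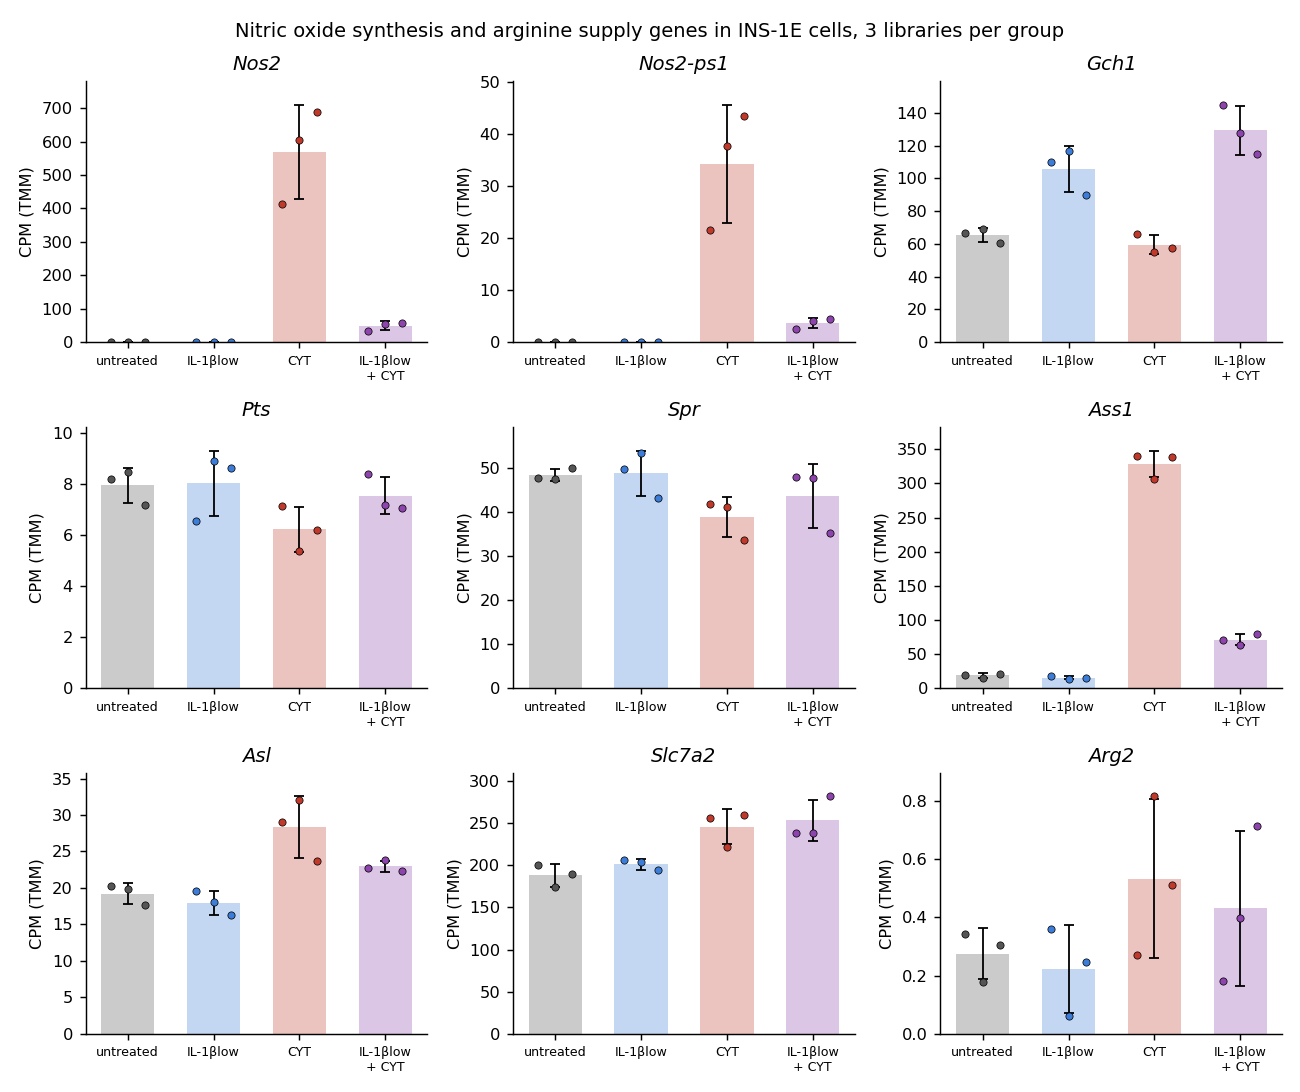
TMM-normalized CPM of the 9 genes on linear axes from 0, by group. Points are libraries, bars group means and whiskers SD (n = 3). Nos2, Nos2-ps1 and Ass1 stood highest in CYT libraries, whereas Gch1 was higher in both preconditioned groups, at 106 and 129 CPM, than in the other two, at 65.3 and 59.6 CPM.

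Nos2 was nearly silent without the challenge and rose with it. Untreated libraries held 2, 0 and 1 counts and IL-1βlow libraries 1, 1 and 0. CYT libraries had 412, 605 and 688 CPM, and IL-1βlow + CYT libraries 33.0, 55.7 and 57.8 CPM. The challenged groups did not overlap each other or the cells without challenge, and the latter lay at the limit of detection. Because untreated libraries had 3 counts together, the ratio of CYT to untreated cells was only loosely bounded, at 9660-fold with an exact counting interval of 3310 to 46800, which covers counting error only. IL-1βlow + CYT cells were 836-fold above untreated cells (exact counting interval 286 to 4060).

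After preconditioning the challenge left Nos2 at 8.59% of its CYT level (95% interval 6.25 to 11.8%). Its log2 fold change was -3.54 (standard error 0.21, adjusted p = 2.8e-08), rank 31 from the lowest of 14324 genes. Preconditioning by itself gave no detectable rise of Nos2, with 2 counts in IL-1βlow libraries together against 3 in untreated libraries. Counts this few bound the level only loosely. A count of 0 would still allow 3 counts, or 0.0577 CPM over the IL-1βlow group, but that floor does not bound a group with counts. Whether the fold response to CYT differed with preconditioning could not be resolved for Nos2 (adjusted p = 0.38 for the interaction), since that ratio rests on 5 counts in 6 unchallenged libraries. In GRCr8 Nos2 overlaps the long non-coding gene LOC106736471, which had 0 counts in all 12 libraries.

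Nos2-ps1, a transcribed pseudogene on the same chromosome with 1 annotated gene between it and Nos2, followed its parent at a lower level. No count was seen in the 6 libraries without challenge. CYT libraries had 21.6, 37.7 and 43.5 CPM and IL-1βlow + CYT libraries 2.61, 3.98 and 4.46 CPM. Against a floor of 3 counts over the group, CYT cells were at least 582-fold and IL-1βlow + CYT cells at least 62.8-fold above untreated cells. The log2 fold change between the challenged groups was -3.21 (standard error 0.29, adjusted p = 7.9e-06).

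Reads of the pseudogene and of Nos2 can be exchanged by alignment, so the split between them is uncertain. Nos2-ps1 took 4.98%, 5.86% and 5.94% of their joint counts in CYT libraries and 7.34%, 6.67% and 7.16% in IL-1βlow + CYT libraries. The preconditioned libraries were all higher, with means of 7.06% ± 0.347 and 5.59% ± 0.533 (SD, n = 3), and the exact two-sided permutation test gave p = 0.1, the smallest that 3 against 3 allow. Exact binomial intervals of single libraries overlapped between the groups, except that of CYT replicate 1 with IL-1βlow + CYT replicate 3. Nos2-ps1 also overlaps Lgals9, which encodes galectin-9. Lgals9 was at 3.65 ± 0.836 CPM in untreated, 4.05 ± 1.28 in IL-1βlow, 101 ± 15.9 in CYT and 24.3 ± 3.70 in IL-1βlow + CYT cells (SD, n = 3). Its part in the pseudogene's counts was not tested.

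**Figure D2:**
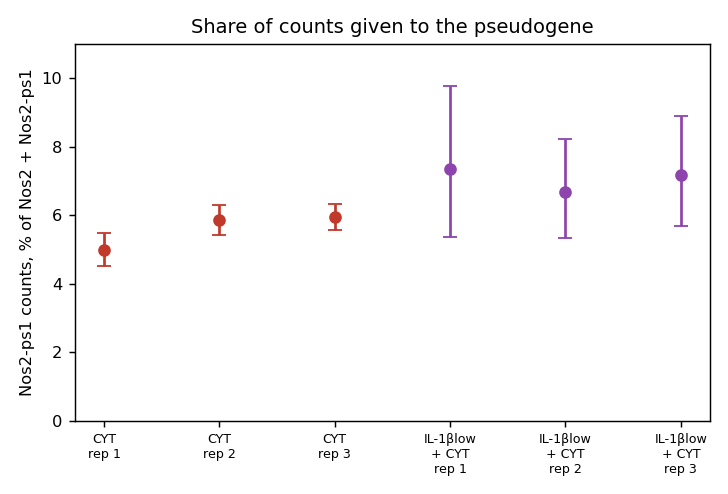
Share of the joint Nos2 and Nos2-ps1 counts assigned to Nos2-ps1 (y axis, percent, from 0) in each challenged library. Whiskers are exact 95% binomial intervals, for counting error only. Points of CYT libraries lie between 4.98% and 5.94% and those of IL-1βlow + CYT libraries between 6.67% and 7.34%.

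Gch1, the gene for the rate-limiting enzyme of the cofactor, had a pattern unlike that of the synthase. It was at 66.4, 68.9 and 60.6 CPM in untreated and at 66.0, 55.2 and 57.7 CPM in CYT libraries, so that both groups overlapped. It was at 110, 117 and 90.0 CPM in IL-1βlow and at 145, 128 and 115 CPM in IL-1βlow + CYT libraries, and each of these 6 values lay above all 6 without preconditioning. Low-dose IL-1β raised it 1.62-fold over untreated cells (log2 fold change 0.69, standard error 0.11, adjusted p = 0.0070). That call is near the threshold and was lost when any library of either group other than IL-1βlow replicate 3 was left out (5 of 6 fits). In those 5 fits the adjusted p ran from 0.027 to 0.052 and the log2 fold change from 0.61 to 0.73, and without IL-1βlow replicate 3 they were 0.0027 and 0.80. Over all 14 alternatives with the same thresholds Gch1 was called in 9, among them the replicate block, DESeq2's Wald test and exactTest.

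Between the challenged groups Gch1 was 2.17-fold higher with preconditioning (log2 fold change 1.12, standard error 0.11, adjusted p = 2.8e-06). Without IL-1βlow + CYT replicate 1 the log2 fold change was 1.00 and did not exceed the minimum. CYT alone gave no call (log2 fold change -0.13, 95% interval -0.38 to 0.11, adjusted p = 0.33). IL-1βlow + CYT cells were 1.98-fold above untreated cells, with an adjusted p of 1.5e-05 and a log2 fold change of 0.99 that fell just short of the minimum of 1. It was called there without IL-1βlow + CYT replicate 3 (1.06), without untreated replicate 2 (1.01) and with no filter on low counts (1.03). From high to low the order was IL-1βlow + CYT, IL-1βlow, untreated and CYT, in which neither the first pair (adjusted p = 0.11) nor the last pair passed the test. The interaction had a log2 value of 0.42 and a standard error of 0.16 (adjusted p = 0.051).

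The next steps of cofactor synthesis showed small differences. Pts ran from 5.36 CPM in CYT replicate 2 to 8.89 CPM in IL-1βlow replicate 2, and no comparison of it was called. CYT libraries had the lowest mean of Pts, at 6.22 ± 0.878 CPM against 7.94 ± 0.680 in untreated libraries (SD, n = 3), with a log2 fold change of -0.35 (95% interval -0.70 to 0.00, adjusted p = 0.077). Spr was at 48.3 ± 1.41 CPM in untreated, 48.7 ± 5.09 in IL-1βlow, 38.9 ± 4.54 in CYT and 43.5 ± 7.33 in IL-1βlow + CYT cells. All 3 CYT libraries lay below all 3 untreated libraries, with a log2 fold change of -0.31 (adjusted p = 0.045) that did not pass. Preconditioned and other challenged cells overlapped for Spr, at 112% of the CYT level (95% interval 92.8 to 136%).

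The other 5 genes of tetrahydrobiopterin control and recycling gave no call in either comparison. Pcbd1 had a log2 fold change of -0.88 with CYT and of 0.59 between IL-1βlow + CYT and CYT cells, under the minimum of 1 each time. Gchfr, whose product binds and restrains GTP cyclohydrolase 1, was at 1.32 CPM in untreated and 0.747 CPM in CYT cells. Qdpr, the recycling reductase, was at 87.5 and 73.4 CPM.

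Ass1, which makes argininosuccinate from citrulline, was the other member with a large response. It was at 19.0, 15.0 and 20.9 CPM in untreated and 17.5, 13.1 and 15.1 CPM in IL-1βlow libraries. CYT libraries had 341, 306 and 339 CPM and IL-1βlow + CYT libraries 70.4, 62.5 and 79.6 CPM. The challenged groups were separate from each other and from both unchallenged groups, which overlapped. Ass1 rose with CYT (log2 fold change 4.17, standard error 0.14, adjusted p = 2.2e-11), rank 175 from the top of 14324 genes. With preconditioning it was 3.87-fold above untreated cells (log2 fold change 1.95, standard error 0.13, adjusted p = 6.1e-08).

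In IL-1βlow + CYT cells Ass1 stood at 21.6% of its CYT level (95% interval 17.9 to 26.0%), or -2.21 on the log2 scale with a standard error of 0.13 (adjusted p = 2.0e-08). The interaction was -1.95 (standard error 0.18, adjusted p = 5.8e-06), so the CYT response was smaller with preconditioning by this test. Low-dose IL-1β alone gave a log2 fold change of -0.26 (95% interval -0.56 to 0.04, adjusted p = 0.41). A small nucleolar RNA gene lies within Ass1 in GRCr8.

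Asl, the lyase of the next step, differed far less. It was at 20.3, 19.8 and 17.6 CPM in untreated, 19.6, 18.0 and 16.3 in IL-1βlow, 29.1, 32.1 and 23.7 in CYT and 22.8, 23.8 and 22.3 CPM in IL-1βlow + CYT libraries. All 3 CYT libraries were above all untreated ones, and the log2 fold change was 0.56 with a standard error of 0.12 (adjusted p = 0.0013), under the minimum. IL-1βlow + CYT cells had 81.2% of the CYT level (95% interval 67.8 to 97.5%, adjusted p = 0.055). Asl overlaps Crcp, a gene for an RNA polymerase III subunit, which averaged 20.9 ± 1.39 CPM without cytokine, 35.2 ± 3.62 after CYT and 21.3 ± 1.25 after IL-1βlow + CYT (SD, n = 3). Its part in the counts of Asl was not tested.

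Slc7a2 was well expressed in every group. Its levels were 201, 174 and 190 CPM in untreated, 206, 204 and 194 in IL-1βlow, 256, 222 and 260 in CYT and 239, 239 and 282 CPM in IL-1βlow + CYT libraries. All 6 challenged libraries were above all 6 others. The log2 fold change with CYT was 0.39 (standard error 0.09, adjusted p = 0.0022) and that of IL-1βlow + CYT against untreated cells 0.43 (standard error 0.09, adjusted p = 0.0034), both under the minimum of 1. Between the challenged groups it was 0.04 (95% interval -0.15 to 0.24, adjusted p = 0.73), an interval that leaves out a change as large as that of Nos2, Ass1 or Gch1.

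Arg2 was barely expressed, with 3 to 6 counts in untreated, 1 to 7 in IL-1βlow, 5 to 14 in CYT and 3 to 12 in IL-1βlow + CYT libraries. Its mean was 0.275 ± 0.0868 CPM in untreated and 0.533 ± 0.273 CPM in CYT cells (SD, n = 3), and the groups overlapped (exact two-sided permutation test, p = 0.3). A difference was not detectable at this depth. Arg2 overlaps Vti1b, which was at 19.8 ± 0.508 CPM in untreated, 20.8 ± 1.03 in IL-1βlow, 33.6 ± 1.96 in CYT and 23.7 ± 0.760 in IL-1βlow + CYT cells (SD, n = 3), and its part in the counts of Arg2 was not tested. Arg1, the cytosolic arginase, was at 305 CPM in untreated, 321 in IL-1βlow, 226 in CYT and 403 in IL-1βlow + CYT cells. Its log2 fold change was -0.43 with CYT (adjusted p = 0.0027) and 0.83 between IL-1βlow + CYT and CYT cells (adjusted p = 1.9e-05), and neither reached the minimum.

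**Figure D3:**
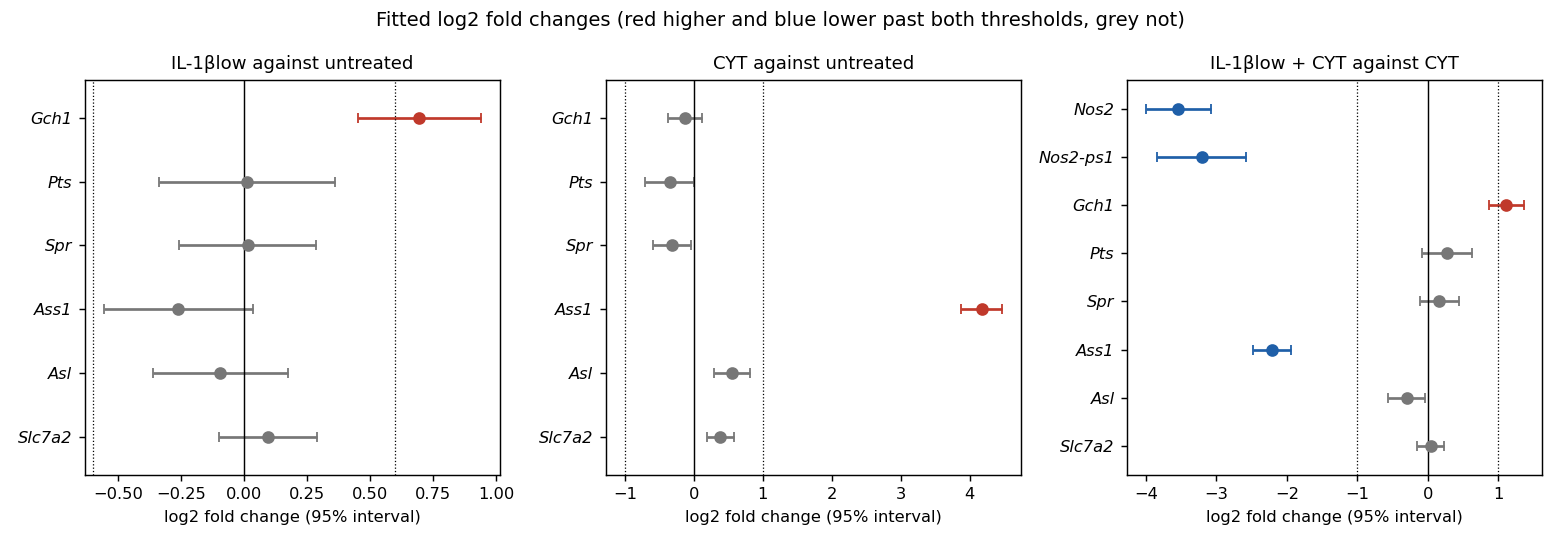
Fitted log2 fold changes (x axis) with 95% intervals in 3 comparisons, 1 panel each. Dotted lines mark the minimum of 0.6 or 1. Nos2 and Nos2-ps1 are left out where one group had next to no counts. Gch1 was past the minimum in the outer panels, at 0.69 and 1.12, and Ass1 in the middle and right panels, at 4.17 and -2.21.

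Around these genes, 77 others of nitric oxide and arginine metabolism were listed, and 65 were tested. The lists were written from general knowledge but with earlier results of these data known, so their shares are a description only. With CYT 11 rose and 6 fell (16.9% and 9.23%), where 10.0% and 11.6% of all genes tested rose and fell. Between IL-1βlow + CYT and CYT cells 5 were called higher and 7 lower (7.69% and 10.8%), against 6.54% and 5.92% of all genes. In IL-1βlow against untreated cells none of the 65 was called.

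Among the 7 other amino acid carrier genes tested, Slc7a1, Slc3a2 and Slc7a5 rose with CYT and were lower with preconditioning, and Slc7a8 fell with CYT. The median log2 fold change of the 7 with CYT was -0.12. Slc7a1, for cationic amino acid transporter 1, had 75.5, 83.2 and 84.3 CPM in untreated and 326, 427 and 381 CPM in CYT libraries. IL-1βlow + CYT libraries had 70.8, 98.1 and 93.2 CPM and overlapped the untreated ones. Its log2 fold change was 2.22 with CYT (standard error 0.12, adjusted p = 2.1e-09) and -2.11 between the challenged groups (standard error 0.12, adjusted p = 2.2e-08).

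Slc3a2, the heavy chain shared by several exchangers, went from 178 ± 8.43 to 724 ± 43.6 CPM with CYT, against 151 ± 15.3 CPM in IL-1βlow + CYT cells (SD, n = 3). Its partner Slc7a5, for the large neutral amino acid exchanger LAT1, was at 212 ± 24.3, 618 ± 109 and 181 ± 37.3 CPM in the same groups. Slc7a8 averaged 119 ± 1.31 CPM without cytokine, 57.6 ± 8.95 after CYT and 63.8 ± 3.77 after IL-1βlow + CYT, where the log2 fold change of 0.15 was not called (adjusted p = 0.24). The carrier Slc7a3 was not tested, being below the filter.

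**Figure D4:**
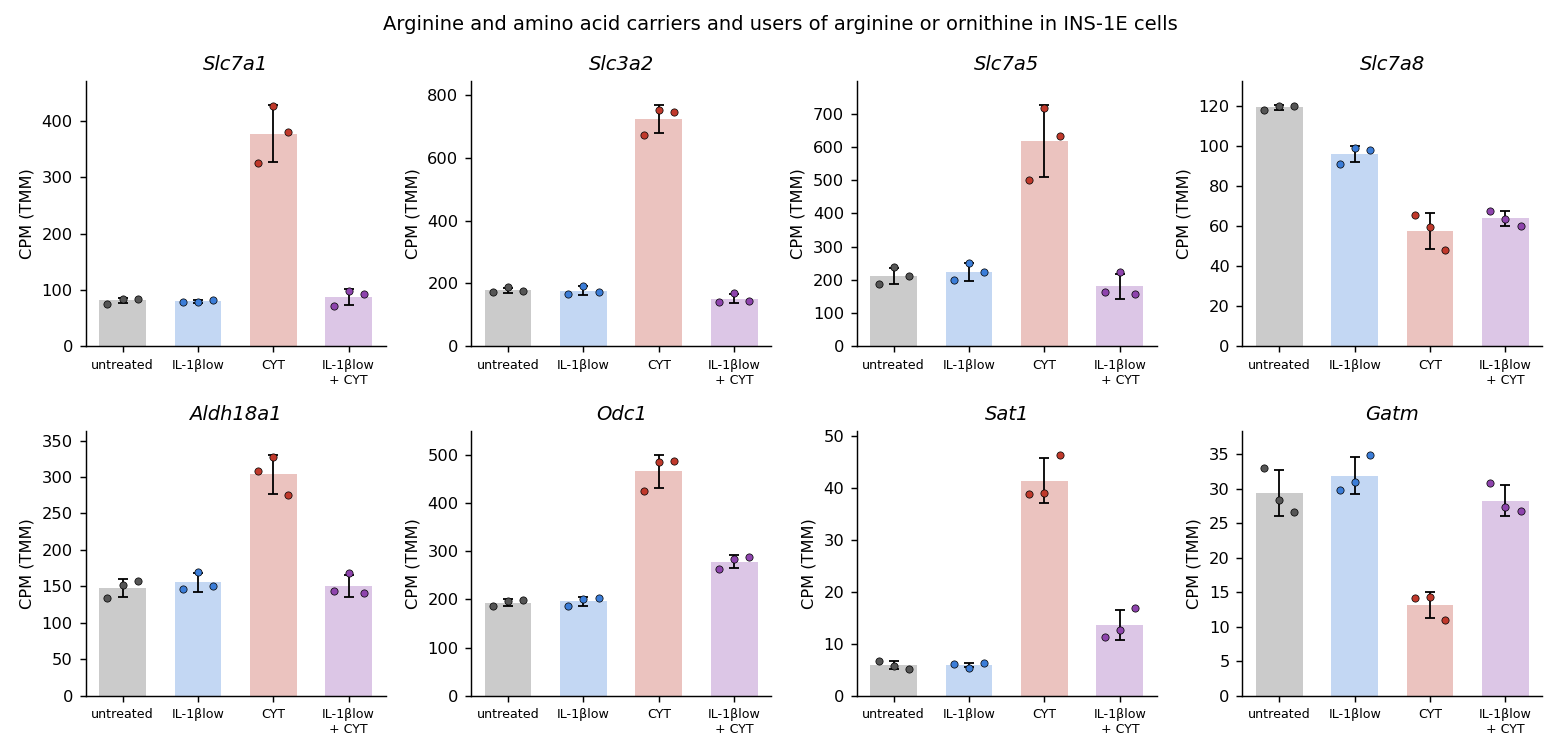
TMM-normalized CPM of 8 named carrier, ornithine, polyamine and creatine genes on linear axes from 0. Points are libraries, bars means and whiskers SD (n = 3). Slc7a1, Slc3a2, Slc7a5 and Aldh18a1 stood in IL-1βlow + CYT cells near the untreated level, whereas Odc1 and Sat1 stayed between it and the CYT level.

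Of 11 tested genes that use arginine or ornithine for polyamines and creatine, Odc1 and Sat1 rose with CYT and Gatm and Gamt fell. Sat1, for the acetyltransferase that turns over polyamines, averaged 5.87 ± 0.795 CPM without cytokine, 41.3 ± 4.33 after CYT and 13.5 ± 2.90 after IL-1βlow + CYT (SD, n = 3; log2 fold change between the challenged groups -1.61, adjusted p = 1.2e-06). Odc1, for ornithine decarboxylase, was at 194 ± 6.76, 466 ± 34.9 and 278 ± 13.4 CPM, and its log2 fold change of -0.74 between the challenged groups was under the minimum. Gatm, for the first enzyme of creatine synthesis, went from 29.3 ± 3.29 to 13.2 ± 1.87 CPM with CYT and was called higher with preconditioning, at 28.3 ± 2.19 CPM. Gamt, for the last step, went from 11.1 ± 0.244 to 4.55 ± 1.11 CPM and was at 8.62 ± 0.740 CPM, which was not called. The median of the 11 was -0.44 with CYT and 0.41 between the challenged groups.

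In the urea cycle and ornithine list 6 of 9 genes were tested. Aldh18a1, whose enzyme starts proline and ornithine synthesis from glutamate, rose with CYT from 148 ± 11.8 to 303 ± 26.7 CPM and was called lower in IL-1βlow + CYT cells, at 151 ± 15.3 CPM (log2 fold change -1.01, adjusted p = 2.1e-06), at the edge of the minimum. The other 5 gave no call, with a median log2 fold change of the 6 of -0.57 with CYT and 0.20 between the challenged groups. Otc, Cps1 and Nags were below the filter. None of the 7 tested makers and breakers of methylarginines was called in either comparison, with medians of 0.23 and -0.24.

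Among the 11 tested genes for other nitric oxide synthases and their partners, 2 fell with CYT, Dynll1 among them, where 11.6% of all genes tested fell. Dynll1 and Cav1 were higher with preconditioning, as were 6.54% of all genes. Dynll1, for a dynein light chain that binds neuronal synthase, averaged 198 ± 11.9 CPM without cytokine, 68.3 ± 17.0 after CYT and 199 ± 16.5 after IL-1βlow + CYT (SD, n = 3). Cav1, for caveolin-1, was low, at 0.469 ± 0.214 CPM with CYT alone and 3.53 ± 1.66 CPM after preconditioning. Nos3 lay between 0.747 and 0.857 CPM on average in each group, Nos1 was below the filter, and the list's median was -0.70 with CYT and 0.34 between the challenged groups.

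Downstream, 3 of 7 genes of the cyclic GMP pathway were tested. Pde5a, for a cyclic GMP phosphodiesterase, went from 3.76 ± 0.840 to 0.971 ± 0.325 CPM with CYT, against 2.86 ± 0.216 CPM in IL-1βlow + CYT cells (SD, n = 3), called in both comparisons. Gucy1b1, for the β subunit of the nitric oxide receptor, was at 19.0 CPM in untreated and 24.7 in CYT cells without a call. Of the α subunit genes, Gucy1a1 was at 0 in every group, and Gucy1a2 was at 3.11 CPM in untreated and 2.47 in CYT cells without a call. The list's medians were -0.34 and 0.02. Of 8 tested genes for removal of nitric oxide and S-nitrosothiols, Cbr1 was called, higher with preconditioning (log2 fold change 1.14, adjusted p = 1.3e-04), and the medians were -0.12 and 0.09. Adh5, for S-nitrosoglutathione reductase, averaged 72.1 CPM without cytokine, 47.9 after CYT and 68.1 after IL-1βlow + CYT without a call.

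The 7 transcription factors with known sites in the Nos2 promoter were the list with the highest median change with CYT, at 1.60. This list too was written with earlier results of these data known. Of the 7, 5 were called higher, among them Irf1, Nfkb1, Cebpb and Cebpd, where 10.0% of all genes tested were. Between the challenged groups the median was -0.88, and Irf1 and Cebpb were called lower, as were 5.92% of all genes tested. Irf1, which interferon-γ induces, averaged 35.1 ± 1.14 CPM without cytokine, 273 ± 73.8 after CYT and 128 ± 5.52 after IL-1βlow + CYT (SD, n = 3). Cebpb was at 28.1 ± 3.56, 85.1 ± 8.53 and 25.5 ± 1.94 CPM. Nfkb1 and Cebpd had log2 fold changes of -0.88 and -0.97 between the challenged groups, both under the minimum. Rela and Hif1a gave no call.

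Patterns over the 12 libraries were compared by Pearson's r of log2 CPM among 11496 genes with a mean log2 CPM above 2, as a description. The groups themselves set most of each r. Most like Nos2 were Ripk2, Tapbp and Sod2 (r = 0.995 each) and Lif and Fas (r = 0.994 each). Ripk2 had group means of 13.1, 12.2, 358 and 116 CPM in untreated, IL-1βlow, CYT and IL-1βlow + CYT cells. A high r does not mean a change of equal size. From CYT to IL-1βlow + CYT cells Nos2 went from 569 to 48.8 CPM. Tapbp went from 883 to 506, Sod2 from 672 to 335, Lif from 73.6 to 28.8 and Fas from 36.6 to 19.1 CPM. Most like Ass1 were Sting1 and Gad1 (r = 0.995 each) and Pygl (r = 0.993), with 2.62, 2.40, 50.9 and 10.4 CPM for Sting1. Most like Gch1 were the chemokine gene Cxcl12 (r = 0.981), Shroom3 (r = 0.978) and Mex3a (r = 0.964). Cxcl12 had 3.77, 12.7, 2.28 and 21.8 CPM, in the same order of groups as Gch1. Most like Slc7a2 were Ryr3 (r = 0.963), LOC108352339 (r = 0.941) and Serping1 (r = 0.939).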

How the data were processed

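INS-1E RNA was made into TruSeq libraries by the authors, whose reads passed FastQC and rfastp, were aligned to mRatBN7.2 with Rsubread and were counted with featureCounts (strand and multi-mapping settings not given in the sources used here). The deposited table holds raw whole-number counts per gene symbol. All 12 columns matched a library name in the labels, and 0 were left unused. R 4.3.3, edgeR 4.0.16 and DESeq2 1.42.0 were used. Genes exceeding 1 CPM in 2 or more libraries entered 1 quasi-likelihood fit over all groups after TMM scaling, without a block. Intervals and floors cover counting error only where they rest on counts of single libraries or groups. Genes named are the 9 members, up to 4 called genes with the largest changes per list, and the nearest patterns. Genes outside this rule (Arg1, Adh5, Pcbd1, Gchfr, Qdpr, Nos3, Gucy1b1, Rela and Hif1a among them, and the overlapping genes) were named after their values were seen. Values of some list genes are not reported here. Members and lists were chosen with earlier results of these data known.

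Replicate numbers come from the labels. Deviations from group means of same-numbered libraries correlated at 0.116 or more for CYT with IL-1βlow + CYT libraries. The lowest was 0.179 for IL-1βlow with IL-1βlow + CYT and 0.131 for IL-1βlow with CYT. Libraries of unlike number averaged -0.173, -0.19 and -0.164 in these pairs, values largely fixed because deviations sum to 0 within a group. Same-numbered libraries of these groups thus shared a pattern, whose source was not tested. With untreated libraries the lowest same-number value was -0.188. Alternatives were RLE factors, Rn45s left out, DESeq2's Wald test, exactTest, other filters and thresholds, the 2 groups alone, the replicate block and leaving out each library. The code was tested on simulated data. Of 34034 symbols, 29433 matched RefSeq.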

Additional observations from a re-analysis of the deposited data

Results flagged for a closer look

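Ass1 was singled out because its CYT response differed between preconditioned and other cells by a test of the difference itself. The log2 fold change with CYT was 4.17 without preconditioning and 2.21 after it, and the interaction came to -1.95 (edgeR, quasi-likelihood, adjusted p = 5.8e-06). Under every alternative run with the same thresholds it stayed called, between -2.08 and -1.87. The same test called 10.7% of all genes and could not resolve Nos2 or Nos2-ps1.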

How the results depend on the processing

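Calls of Nos2, Nos2-ps1 and Ass1 kept their direction and their side of the thresholds wherever these genes were tested. Requiring at least 10 counts in every library removed Nos2, Nos2-ps1 and Arg2 by its own construction and left 1 member called with CYT, 2 between the challenged groups, and 1 for IL-1βlow + CYT against untreated and against IL-1βlow cells. Calling at an adjusted p of 0.05 with the fold minimum dropped gave 6 members with CYT (62.3% of all genes tested), 5 in IL-1βlow + CYT against untreated cells (21.8%) and 4 against IL-1βlow cells (13.0%). Leaving out 1 library gave 0 to 1 called members for IL-1βlow against untreated cells. Asl stood at 73.6% to 87.0% of the CYT level without 1 library.

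With the replicate block the number of members called was 1 for IL-1βlow against untreated, 3 with CYT, 4 between the challenged groups and 1 for the interaction, as without it, and no call of a member changed. The interaction of Gch1 had an adjusted p of 0.0084 with the block, with a log2 fold change of 0.42, still under the minimum. Among others, adjusted p also fell for Spr with CYT (0.0088) and for Asl between the challenged groups (0.02). For Gch1 in IL-1βlow + CYT against IL-1βlow cells it fell to 0.019, and none of these was called.

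Values near 0 changed sign when 1 library was left out. In IL-1βlow against untreated cells Spr then ranged from -0.06 to 0.09 (0.00 in 3 fits) and Pts from -0.07 to 0.14 (-0.06 and -0.04 among them). Slc7a2 between the challenged groups ranged from -0.04 to 0.08, with -0.03 among them. The cause was not tested. Depth limits Arg2, and Nos2 without challenge.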
